A study of Mus musculus with 12 samples.

Results

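The Hox genes were followed across cultured mouse keratinocytes, newborn skin and 30-day skin through 37 probe sets, taken as every probe set whose annotation gives a single gene symbol made of Hoxa, Hoxb, Hoxc or Hoxd and a number. These 37 of the 22690 probe sets on the array measured 31 genes, of 12393 genes with a probe set of their own and of 39 Hox genes in the RefSeq gene table. Cluster A was represented by 9 genes, cluster B by 9, cluster C by 6 and cluster D by 7, and 5 genes had more than 1 probe set. Another 3 probe sets whose annotation names several genes were left out.

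Hox genes encode homeodomain transcription factors that give cells along the body axis their positional identity. They lie in 4 clusters in which the order of the genes along the chromosome follows the order of their expression domains from head to tail, and genes with the same number in different clusters are called paralogues. In skin, dermal fibroblasts of different body sites keep different Hox programs into adult life, epidermal keratinocytes express Hox genes as well, and Hoxc13 acts in the hair follicle, where it activates genes of hair keratins. Many Hox proteins bind DNA together with cofactors of the TALE class, the Pbx, Meis and Pknox proteins.

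RNA was measured in 12 samples, 1 Affymetrix array each. The 5 cultures held primary keratinocytes of newborn mice, pooled from 5 mice each, grown without passage for at most 3 days in medium low in calcium, which keeps keratinocytes in a basal, undifferentiated state. Mice of mixed C57, DBA and FVB background gave replicates 1 and 2, and FVB mice gave replicates 3, 4 and 5. The 2 samples of newborn skin came from FVB mice and the 5 samples of skin from mice aged 30 days from the mixed background, so that strain and age coincide within skin. The labels name no transgene, drug or body site, which leaves unknown from where on the axis the skin was taken. Whether each skin sample is another animal is not stated either, and the p-values therefore describe the spread between arrays, part or all of which may be technical.

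The sequences just before the starts of Hoxd8, Hoxd9 and Hoxa5 are shown because the neighbours Hoxd8 and Hoxd9 were both lower in culture than in newborn skin but only Hoxd9 was called between the ages of skin, while Hoxa5 had one of the largest differences between the ages. Each line holds the 250 bases before the start, from RefSeq on GRCm38.p6, in the direction of the gene, with CpG dinucleotides in capitals.
Hoxd8: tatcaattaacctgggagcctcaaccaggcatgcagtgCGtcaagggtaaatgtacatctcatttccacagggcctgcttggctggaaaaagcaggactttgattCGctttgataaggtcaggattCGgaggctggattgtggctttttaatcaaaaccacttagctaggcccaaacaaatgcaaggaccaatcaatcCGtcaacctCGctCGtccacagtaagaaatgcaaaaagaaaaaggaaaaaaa
Hoxd9: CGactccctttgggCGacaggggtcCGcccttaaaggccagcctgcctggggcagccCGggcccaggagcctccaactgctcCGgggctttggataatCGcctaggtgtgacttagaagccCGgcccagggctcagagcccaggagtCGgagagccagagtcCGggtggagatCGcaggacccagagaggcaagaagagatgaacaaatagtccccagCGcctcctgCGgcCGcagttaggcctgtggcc
Hoxa5: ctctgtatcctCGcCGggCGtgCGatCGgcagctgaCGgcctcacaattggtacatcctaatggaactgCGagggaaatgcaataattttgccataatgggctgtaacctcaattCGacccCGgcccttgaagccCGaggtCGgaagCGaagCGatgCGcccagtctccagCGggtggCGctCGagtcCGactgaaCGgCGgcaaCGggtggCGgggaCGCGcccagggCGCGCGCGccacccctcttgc
The windows lie at chr2:74704365-74704614 on the plus strand for Hoxd8, at chr2:74697513-74697762 on the plus strand for Hoxd9 and at chr6:52204588-52204837 on the minus strand for Hoxa5. Hoxd8 had 6 CpG and 44.4% G and C, Hoxd9 had 13 CpG and 65.2%, and Hoxa5 had 28 CpG and 63.6%. Over the 24 Hox promoters of the table, which belong to 22 Hox genes, 18 of them measured here, the median was 12.5 CpG (2 to 35) in such a window, against 6 (0 to 56) over all 32851 promoters. CCAAT, the letters bound by NF-Y, was searched on both strands and stood in 14 of the 24 Hox windows (58.3%) and in 33.8% of all windows. The letters AGGTCA, one arm of a retinoic acid receptor site, stood in 6 Hox windows (25%) and 14% of all, TATAAA in 4 (16.7%) and 12.4%, TGATNNAT, a composite site of Hox and Pbx proteins, in 4 (16.7%) and 7.68%, and TTTATNG, a site of posterior Hox proteins, in 2 (8.33%) and 9.81%. Hoxd8 held AGGTCA and CCAAT, Hoxa5 held CCAAT, and Hoxd9 held none of the 5. All were searched on both strands, and a TTTATNG with A for its N holds TATAAA on the other strand. A match describes letters only.

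The deposited values are log2 intensities, so a difference of 1 is a factor of 2 on the intensity scale. A value describes 1 probe set and is set against others only through the background line given below, as a description. Array medians lay between 5.86 and 6.01. Over 88 probe sets of 64 genes of other organs, where little RNA is expected, group means had a 95th percentile of 6.05 in culture, 6.03 in newborn and 6.23 in 30-day skin, here called the background line. A difference is given without a fold where a group mean lies under that line, since the deposited values carry no detection call and such a level is not told from background here. Replicate 1 of 30-day skin stood apart in RNA quality. Its actin control probe sets differed by 1.74 between the 3' and the 5' end, against 0.67 to 0.82 in the other 30-day arrays. This gap was 0.99 and 1.14 in the newborn arrays, wider than in those 30-day arrays and in every culture, at 0.21 to 0.74. The part of RNA quality in the differences from newborn skin was not tested. Keratinocyte markers averaged 10.63 to 10.99 in culture and 9.79 to 9.99 in skin, and 4 of 7 were higher in culture than in either skin group. Fibroblast markers averaged 5.50 to 6.11 in culture, 10.90 to 10.95 in newborn and 10.01 to 10.53 in 30-day skin, with 9 of 9 lower in culture and 5 of 9 lower at 30 days than in newborn skin. Hair matrix and shaft markers averaged 5.13 to 5.37 in culture, 9.61 to 9.68 in newborn and 11.13 to 11.96 in 30-day skin, with 8 of 8 higher at 30 days. All 6 endothelial, 6 skeletal muscle and 4 adipocyte markers were lower in culture than in either skin group. Of the leukocyte markers 5 of 6 were lower in culture than in newborn and 6 of 6 than in 30-day skin, and of the melanocyte markers 1 of 5 and 3 of 5. Between the ages, 5 of 6 endothelial and 2 of 4 adipocyte markers were lower at 30 days, 2 of 6 leukocyte and 1 of 5 melanocyte markers were higher, and 0 of 6 muscle markers passed. By the same test 14.7% of all probe sets were lower and 17.6% higher in culture than in newborn skin. Against 30-day skin 18.2% were lower and 25.1% higher in culture, and between the ages 7.36% were lower and 4.75% higher at 30 days. In such bulk samples, fewer cells of a type and less RNA per cell cannot be told apart.

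Differences were tested with limma over 22626 probe sets, and a probe set is called where its Benjamini-Hochberg adjusted p lies under 0.05. Against newborn skin, 10 Hox probe sets were higher in culture and 3 lower, where 17.6% of all probe sets were higher and 14.7% lower. Against 30-day skin, 4 were higher (25.1% of all) and 8 lower (18.2% of all). With both skin groups weighted equally, 6 were higher (24.3% of all) and 6 lower (18.3% of all). The share of Hox probe sets called either way, 35.1%, 32.4% and 32.4%, was near or below that of all probe sets, 32.3%, 43.3% and 42.5%. Between 30-day and newborn skin, 8 Hox probe sets were higher at 30 days, 21.6% of the 37 against 4.75% of all, and 1 was lower, 2.7% against 7.36% of all. Median differences of the 37 probe sets were 0.11 against newborn skin, -0.01 against 30-day skin and 0.11 between the ages, beside 0.04, 0.03 and 0.00 over all probe sets.

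**Figure D1:**
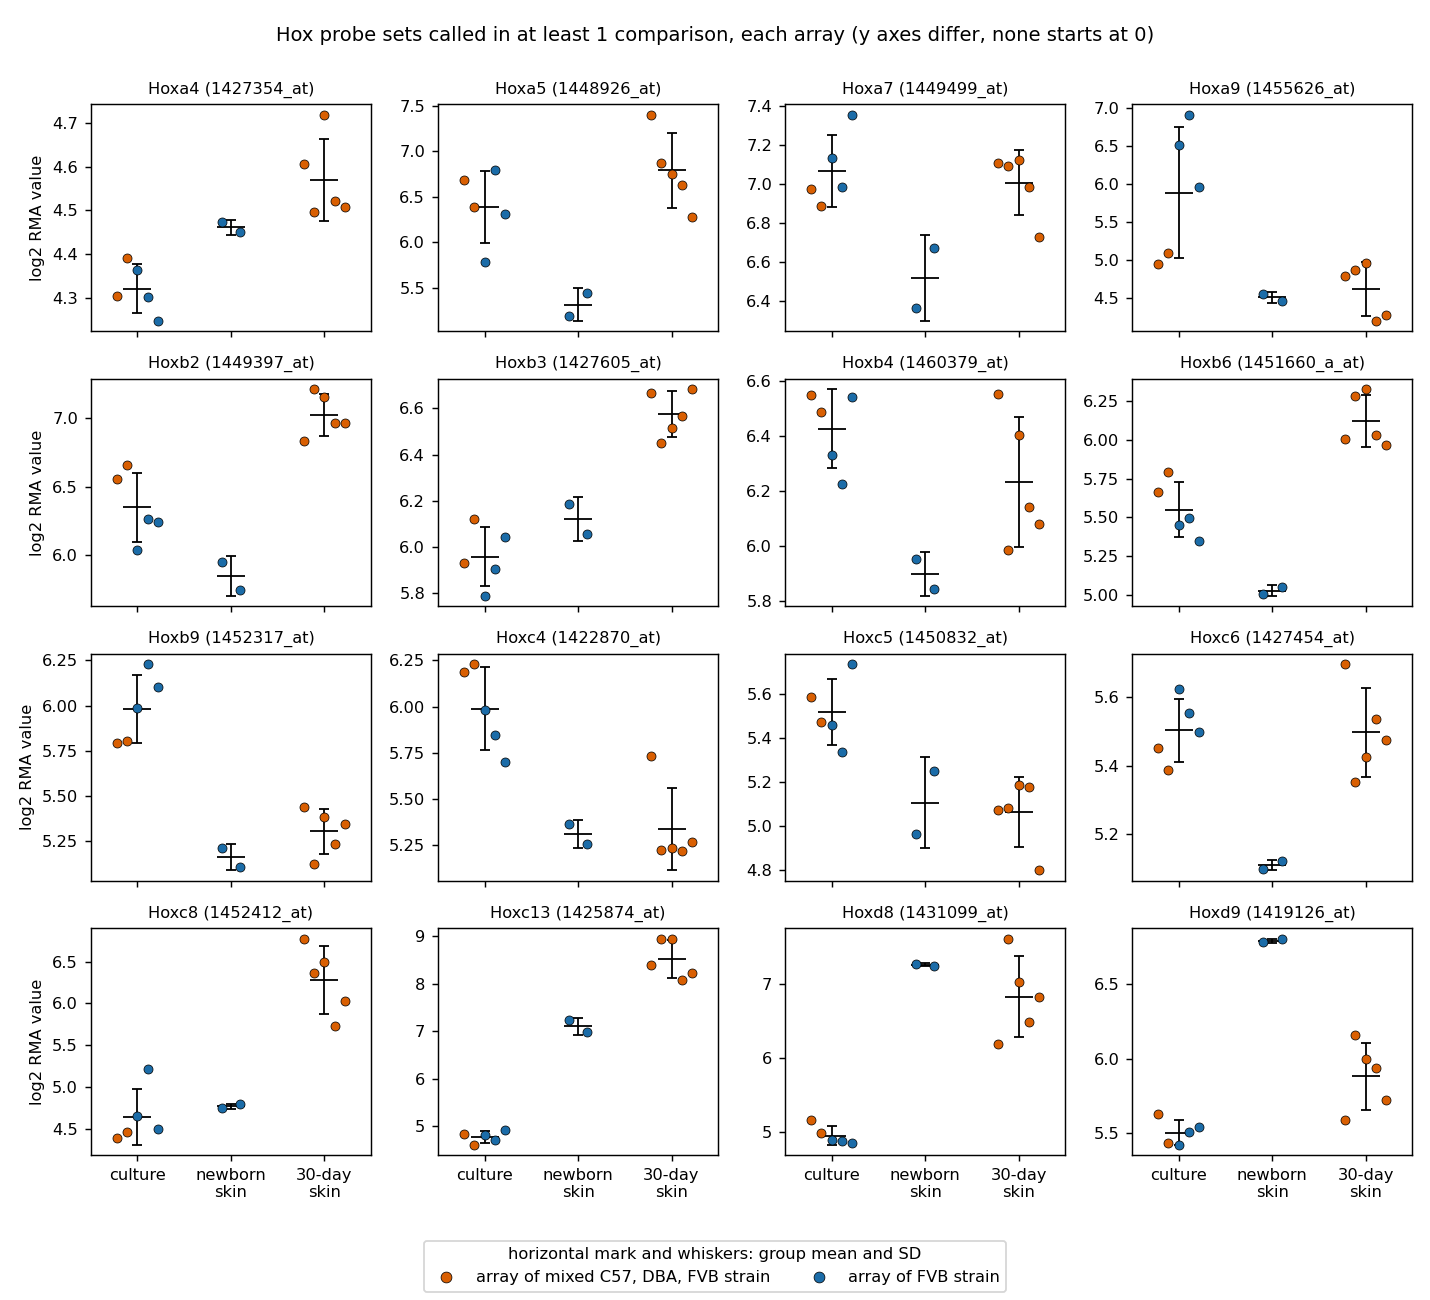
Log2 values of the Hox probe sets called in at least 1 comparison, 1 point per array for 5 cultures, 2 samples of newborn skin and 5 of 30-day skin. Hoxc13 and Hoxd8 lie lower in every culture than in every skin sample, and Hoxb2, Hoxb6 and Hoxc8 lie higher in every 30-day than in every newborn sample.

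By position in the cluster, the calls fell as follows. Of the 16 probe sets of paralogues 4 to 8, 5 were higher at 30 days and 0 lower. Paralogues 1 to 3 had 2 of 7 higher and 0 lower, and paralogues 9 to 13 had 1 of 14 higher and 1 lower. Clusters A, B and C held 2, 3 and 3 of the calls that were higher at 30 days, and cluster D held the lower one. Against newborn skin, culture was higher for 3 probe sets of cluster A, 4 of B and 3 of C and for 0 of D, and lower for 1 of C and 2 of D. Clusters A, B, C and D had 12, 10, 8 and 7 probe sets. Over all probe sets, 4.75% were called higher at 30 days and 7.36% lower. For culture set against newborn skin, the shares over all probe sets were 17.6% higher and 14.7% lower. The Hox calls are counts over few members, and no test compared the clusters.

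Hoxc13, the member with the greatest difference, was low in culture, intermediate in newborn skin and highest in 30-day skin. The 5 cultures read 4.85, 4.61, 4.81, 4.72 and 4.93. Newborn skin read 7.23 and 6.98, and 30-day skin read 8.40, 8.95, 8.94, 8.08 and 8.23. The 3 groups did not overlap. Culture lay below newborn skin by a log2 difference of -2.33 ± 0.21 (SE), with a limma adjusted p of 1.58e-06, and below 30-day skin by -3.74 ± 0.16, with an adjusted p of 4.69e-10. Between the ages the difference was 1.41 ± 0.21, 2.66-fold, with an adjusted p of 0.000724. The mean of the cultures, 4.78 ± 0.13 (SD, n = 5), lay under the background line, and both skin groups lay above it.

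The genes listed with Hoxc13 were hair keratins and factors of the follicle, and they were lower in culture almost throughout. Of the 19 measured, 15 were lower than in newborn skin (14.7% of all probe sets) and 19 lower than in 30-day skin (18.2% of all). Between the ages, 17 were higher at 30 days than in newborn skin (4.75% of all). Krt33a, a hair shaft keratin, differed by -6.20 ± 0.23 between culture and newborn skin, by -8.14 ± 0.18 between culture and 30-day skin and by 1.93 ± 0.23 between the ages. Foxn1, a forkhead factor that acts downstream of Hoxc13 in the hair shaft, was not called against newborn skin, at -0.31 ± 0.19 (limma adjusted p = 0.265), and was called against 30-day skin at -1.66 ± 0.15. Foxq1, another forkhead factor of the hair medulla, behaved likewise, at -0.22 ± 0.25 against newborn and -1.86 ± 0.19 against 30-day skin. Msx2, a homeobox gene of the hair matrix, was lower in culture by -1.45 ± 0.20 and -2.48 ± 0.15. Dlx3 and Ovol1 were the 2 genes not called between the ages, at 0.64 ± 0.21 (adjusted p = 0.0605) and 0.35 ± 0.34 (adjusted p = 0.596). Among the 30-day arrays, replicates 4 and 5 had the highest mean of hair markers, 11.96 and 11.91, and the lowest Hoxc13. The same arrays had the lowest means of fibroblast markers, 10.01 and 10.05, and of muscle markers, 10.73 and 10.79. Their means of adipocyte, keratinocyte and leukocyte markers were also the lowest. The part of follicle and other cell content in the Hoxc13 differences was not tested.

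**Figure D2:**
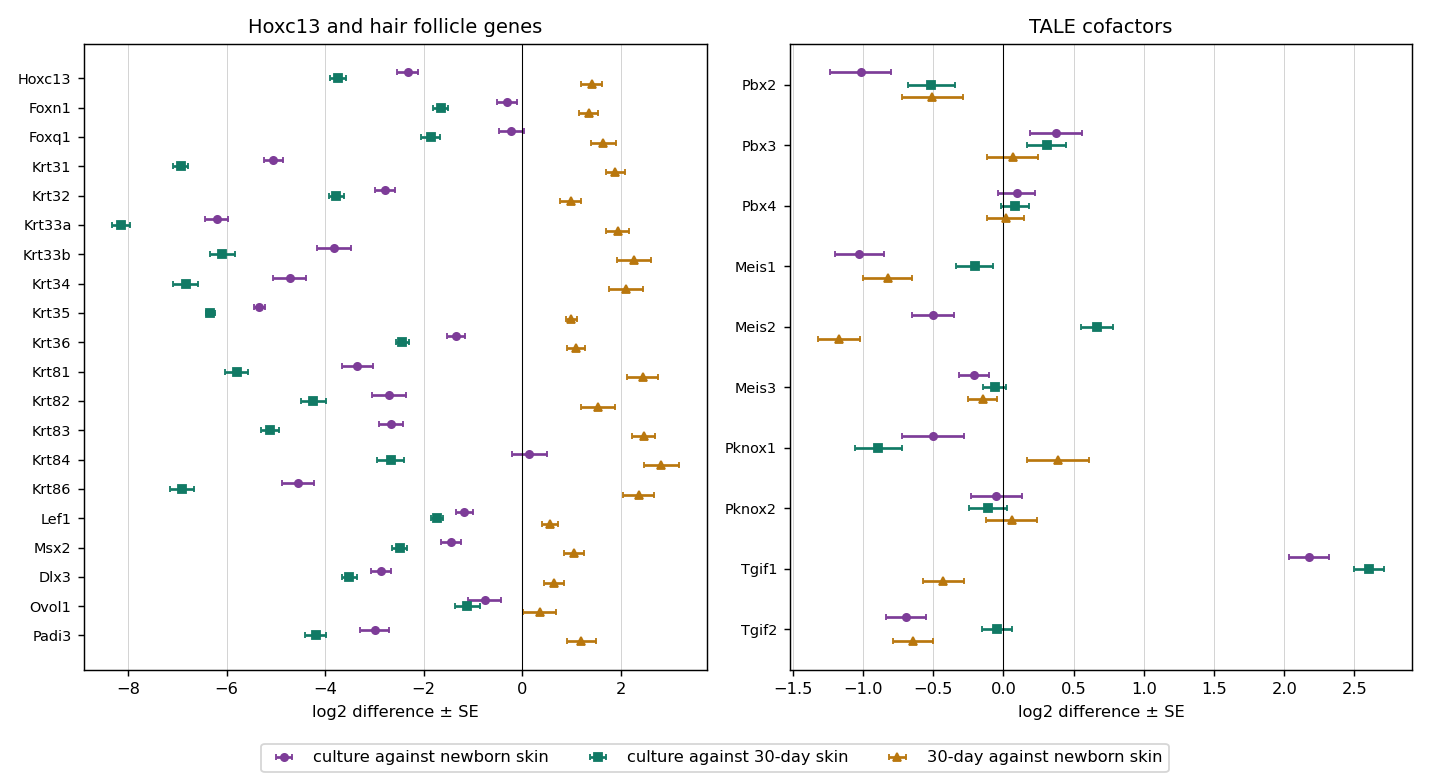
Log2 differences with standard errors for Hoxc13 and the hair follicle genes listed with it (left) and for TALE cofactors, Tgif1 and Tgif2 (right). The comparisons are culture against newborn skin, culture against 30-day skin and 30-day against newborn skin. Most hair keratins lie at or beyond the differences of Hoxc13, whereas Foxn1, Foxq1 and Krt84 lie near 0 in culture against newborn skin. Tgif1 lies at 2.18 and 2.60 in culture against the 2 skin groups.

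The neighbours Hoxd8 and Hoxd9 were both lower in culture than in skin, and Hoxd9 was also lower at 30 days than in newborn skin. Hoxd8 read 5.17, 4.99, 4.89, 4.89 and 4.85 in culture, 7.28 and 7.26 in newborn skin and 6.19, 7.62, 7.04, 6.50 and 6.83 in 30-day skin. Every culture lay below every skin sample, and the 2 ages overlapped. Its difference was -2.31 ± 0.27 against newborn skin (limma adjusted p = 1.5e-05), and -1.88 ± 0.20 against 30-day skin (adjusted p = 4.67e-06), with -0.43 ± 0.27 between the ages (adjusted p = 0.356). The lowest 30-day value belonged to replicate 1, the array with the widest actin gap, without which the difference from culture was -2.04. Both skin groups lay above the background line and culture, with a mean of 4.96, under it.

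Hoxd9 was highest in newborn skin. It read 5.63, 5.43, 5.42, 5.51 and 5.54 in culture, 6.78 and 6.80 in newborn skin and 5.59, 6.16, 6.0, 5.94 and 5.73 in 30-day skin. Newborn skin stood above all other arrays and was the only group over the background line, and culture and 30-day skin overlapped through culture 1 and replicate 1 of 30-day skin. Culture was lower than newborn skin by -1.29 ± 0.14 (limma adjusted p = 6.09e-06), and 30-day skin was lower than newborn skin by -0.91 ± 0.14 (adjusted p = 0.000666). The smaller difference from 30-day skin, -0.38 ± 0.10 (adjusted p = 0.00827), was no longer called against the mixed-strain cultures alone, at -0.35 (adjusted p = 0.0582). Fibroblast markers were lower in culture and, for 5 of 9, lower at 30 days, and their part in the Hoxd8 and Hoxd9 differences was not tested. The other 5 members of cluster D, Hoxd1, Hoxd10, Hoxd11, Hoxd12 and Hoxd13, were called in none of the 5 comparisons, with group means from 3.76 for Hoxd1 to 5.20 for Hoxd13.

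Hoxc8, a gene of the middle of cluster C, was over the background line in 30-day skin only. Cultures read 4.39, 4.46, 4.65, 5.22 and 4.50, newborn skin 4.75 and 4.79, and 30-day skin 6.77, 6.37, 6.49, 5.73 and 6.03. All 30-day arrays lay above all others, and newborn skin, with a mean of 4.77, lay within the range of the cultures, with a mean of 4.64. The difference was 1.51 ± 0.25 between the ages (limma adjusted p = 0.00165), and -1.63 ± 0.19 for culture against 30-day skin (adjusted p = 1.03e-05). Against newborn skin it was -0.13 (adjusted p = 0.769). Replicates 4 and 5 were the lowest 30-day arrays here as well. Of these arrays they had the most hair marker RNA and the least fibroblast, muscle, adipocyte, keratinocyte and leukocyte marker RNA. The part of cell content in the Hoxc8 differences was not tested. Hoxc9, its neighbour, was called in no comparison and had means of 6.33 ± 0.14, 6.19 ± 0.01 and 6.44 ± 0.09 in culture, newborn and 30-day skin.

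Hoxb2 and Hoxb6, both of cluster B, had higher values in 30-day than in newborn skin. Hoxb2 was over the background line in culture and 30-day skin and under it in newborn skin, with a mean of 5.85, and Hoxb6 was over it in no group, with means of 5.55 in culture, 5.03 in newborn and 6.12 in 30-day skin. Hoxb2 read 6.55, 6.66, 6.04, 6.26 and 6.24 in culture, 5.95 and 5.75 in newborn skin and 6.83, 7.21, 7.15, 6.96 and 6.97 in 30-day skin. Hoxb6 read 5.66, 5.79, 5.45, 5.50 and 5.35 in culture, 5.0 and 5.05 in newborn skin and 6.01, 6.29, 6.33, 6.03 and 5.97 in 30-day skin. For both genes no array of one group reached into another. Between the ages Hoxb2 differed by 1.18 ± 0.16 (limma adjusted p = 0.000324), and Hoxb6 by 1.10 ± 0.14 (adjusted p = 0.000166). Culture was lower than 30-day skin by -0.67 ± 0.12 for Hoxb2 (adjusted p = 0.000412) and by -0.57 ± 0.10 for Hoxb6 (adjusted p = 0.000451). Culture was higher than newborn skin by 0.50 ± 0.16 for Hoxb2 (adjusted p = 0.0266) and by 0.52 ± 0.14 for Hoxb6 (adjusted p = 0.00905), directions that turned to -0.21 and -0.19 when arrays were centred on 23 epithelial junction genes. Against the FVB cultures alone, the strain of newborn skin, the Hoxb2 difference was 0.33 and not called (adjusted p = 0.0664), and its call was also lost without culture 1 (adjusted p = 0.0504) or without replicate 1 (adjusted p = 0.0658) or 2 (adjusted p = 0.23) of newborn skin. Of those 23 genes, 12 were higher in culture than in newborn skin as deposited and 1 lower, and this epithelial centring moves the median of all probe sets by -0.72 in that comparison.

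Hoxb3 and Hoxa5 were also higher at 30 days. Hoxb3 read 5.93, 6.12, 5.79, 5.91 and 6.05 in culture, 6.19 and 6.06 in newborn skin and 6.67, 6.45, 6.52, 6.57 and 6.68 in 30-day skin, so that 30-day skin stood above the other groups, which overlapped. Its difference was 0.45 ± 0.11 between the ages (limma adjusted p = 0.0162) and -0.62 ± 0.08 for culture against 30-day skin (adjusted p = 3.66e-05). The age difference of Hoxb3 was 0.12 under epithelial centring (adjusted p = 0.456), and its call was lost with the replicate block (adjusted p = 0.0608) and without replicate 1 (adjusted p = 0.0691) or 2 (adjusted p = 0.21) of newborn skin. Hoxa5 read 6.68, 6.39, 5.78, 6.79 and 6.31 in culture, 5.19 and 5.44 in newborn skin and 7.40, 6.88, 6.75, 6.63 and 6.28 in 30-day skin. Newborn skin alone was low, under the background line, and culture and 30-day skin overlapped widely, at -0.40 (adjusted p = 0.141). Hoxa5 was higher at 30 days than in newborn skin by 1.47 ± 0.27 (adjusted p = 0.00327), and higher in culture than in newborn skin by 1.07 ± 0.27 (adjusted p = 0.00781). The latter call was lost under epithelial centring and, at 0.95 (adjusted p = 0.0959), without replicate 1 of newborn skin, and the age call too, at 1.35 (adjusted p = 0.061).

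Hoxa7 and 1 of 3 probe sets of Hoxc6 had small differences of the same kind. Hoxa7, which has been studied in keratinocyte differentiation, read 6.98, 6.89, 7.13, 6.98 and 7.35 in culture, 6.36 and 6.67 in newborn skin and 7.10, 7.09, 7.12, 6.99 and 6.73 in 30-day skin. Its lead over newborn skin was 0.49 ± 0.15 at 30 days (limma adjusted p = 0.0449) and 0.55 ± 0.15 in culture (adjusted p = 0.0102), the latter turning to -0.17 under epithelial centring. The age call of Hoxa7 was lost under 16 of 24 other settings. The Hoxc6 probe set 1427454_at read 5.45, 5.39, 5.62, 5.55 and 5.50 in culture, 5.10 and 5.12 in newborn skin and 5.70, 5.35, 5.43, 5.54 and 5.48 in 30-day skin, a difference of 0.39 ± 0.11 for either group against newborn skin (adjusted p = 0.0315 at 30 days and 0.0116 in culture). Under epithelial centring the value in culture turned to -0.32 and the age difference was 0.06 (adjusted p = 0.751), and the age call was lost under 11 of 22 other settings. The other probe sets of Hoxc6, 1427361_at and 1427362_x_at, differed between the ages by 0.33 (adjusted p = 0.271) and 0.47 (adjusted p = 0.114) and were not called.

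**Figure D3:**
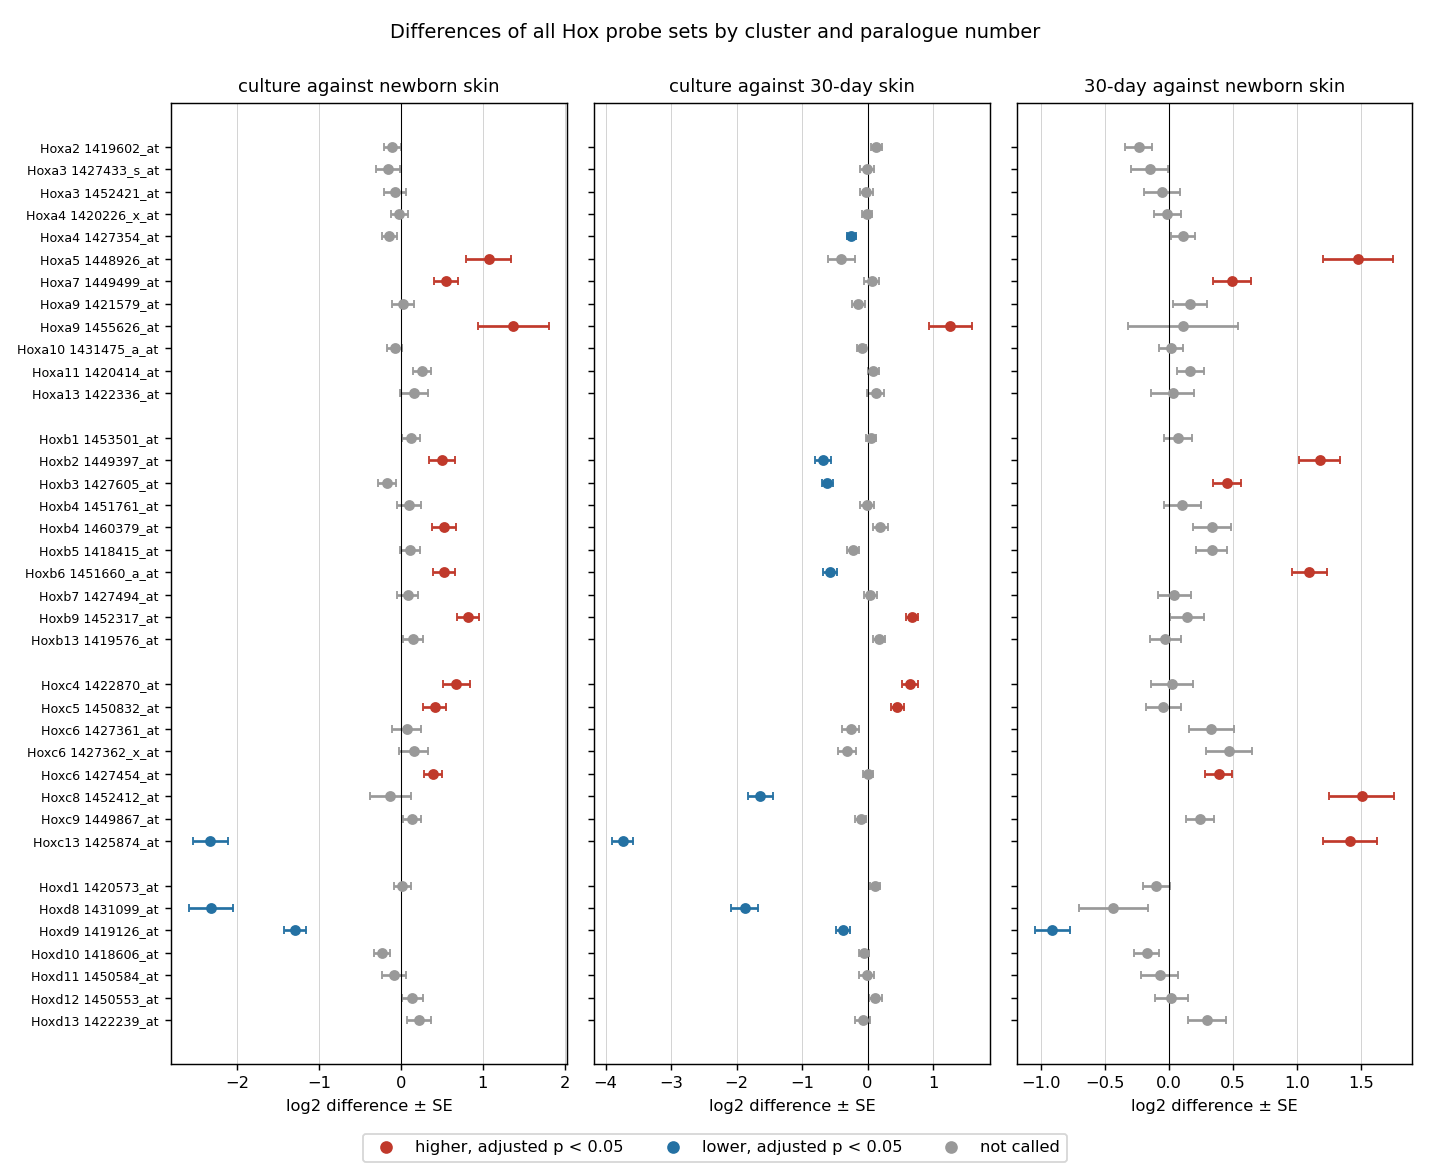
Log2 differences with standard errors of all 37 Hox probe sets, ordered by cluster and paralogue number, for culture against newborn skin, culture against 30-day skin and 30-day against newborn skin, with calls at an adjusted p under 0.05 in colour. Calls above 0 between the ages lie in clusters A, B and C and the 1 call below 0 is Hoxd9. The calls of Hoxa7, Hoxb2, Hoxb4, Hoxb6, Hoxc4, Hoxc5 and Hoxc6 above newborn skin in culture were lost under epithelial centring. Their differences changed sign there, and none was called lower.

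The 9 age calls rest on 2 newborn arrays that correlated at 0.993 with each other, and on a contrast in which strain moves with age. When arrays of a group correlating above 0.99 were averaged to 1 sample, newborn skin was left with 1 sample, assumed to vary like the other groups. The age calls were lost under that setting. The differences stayed at 1.14 for Hoxb2, 1.08 for Hoxb6, 1.59 for Hoxc8, 1.39 for Hoxc13 and -0.96 for Hoxd9. A fit with 1 newborn sample is less precise for every probe set, so this loss is no result about Hox genes in particular. Leaving out either newborn array also leaves 1 sample there, and fewer Hox probe sets were then called higher at 30 days. With strain as a covariate, taken from the cultures, Hoxb2 differed by 0.75 (adjusted p = 0.0181), Hoxb6 by 0.80 (adjusted p = 0.0106), Hoxc8 by 1.87 (adjusted p = 0.00461), Hoxc13 by 1.51 (adjusted p = 0.0091) and Hoxd9 by -0.95 (adjusted p = 0.0098), whereas Hoxa5 at 1.23 (adjusted p = 0.0772) and Hoxb3 at 0.34 (adjusted p = 0.241) lost their calls. Within skin itself, age and strain cannot be told apart.

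A further group stood higher in culture than in both skin groups: Hoxb9, Hoxc4, Hoxc5 and 1 probe set of Hoxa9. Hoxb9 read 5.80, 5.80, 5.99, 6.23 and 6.10 in culture, 5.21 and 5.11 in newborn skin and 5.44, 5.13, 5.38, 5.23 and 5.34 in 30-day skin. Every culture exceeded every skin sample. The difference was 0.82 ± 0.13 against newborn skin (limma adjusted p = 0.000252) and 0.68 ± 0.10 against 30-day skin (adjusted p = 7.4e-05), and under epithelial centring it was 0.10 (adjusted p = 0.55) and 0.29 (adjusted p = 0.0405).

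Hoxc4 and Hoxc5, neighbours at the 3' end of cluster C, were higher in culture by less than 1 on the log2 scale. Hoxc4 read 6.19, 6.23, 5.98, 5.84 and 5.70 in culture, 5.37 and 5.26 in newborn skin and 5.73, 5.22, 5.24, 5.22 and 5.27 in 30-day skin. The only overlap came from replicate 1 of 30-day skin. Its differences were 0.68 ± 0.17 against newborn skin (limma adjusted p = 0.00604) and 0.65 ± 0.13 against 30-day skin (adjusted p = 0.000739), the latter 0.75 without replicate 1. Hoxc5 read 5.59, 5.47, 5.46, 5.34 and 5.74 in culture, 4.96 and 5.25 in newborn skin and 5.07, 5.08, 5.19, 5.18 and 4.80 in 30-day skin, with no overlap. It differed by 0.41 ± 0.14 (adjusted p = 0.0326) and 0.45 ± 0.10 (adjusted p = 0.00245). Against the FVB cultures alone, the strain of newborn skin, the former was 0.40 and not called (adjusted p = 0.0522). That call was also lost with the replicate block (adjusted p = 0.123) and without culture 1 (adjusted p = 0.0565) or 5 (adjusted p = 0.0585). Without replicate 1 of newborn skin the difference was 0.27. Under epithelial centring the differences from newborn skin turned to -0.04 for Hoxc4 and -0.31 for Hoxc5, and the calls against 30-day skin were lost, at 0.27 (adjusted p = 0.139) and 0.07 (adjusted p = 0.629). With close arrays averaged Hoxc4 lost both calls, at 0.63 (adjusted p = 0.173) and 0.54 (adjusted p = 0.0658), and Hoxc5 the one against newborn skin, at 0.45 (adjusted p = 0.142).

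Hoxb4 and Hoxa4 completed the calls of culture against skin. The Hoxb4 probe set 1460379_at read 6.55, 6.49, 6.33, 6.23 and 6.54 in culture, 5.95 and 5.84 in newborn skin and 6.55, 5.99, 6.40, 6.14 and 6.08 in 30-day skin. It was higher in culture than in newborn skin by 0.53 ± 0.15 (limma adjusted p = 0.0145), a value of -0.19 under epithelial centring, and overlapped with 30-day skin. The second Hoxb4 probe set, 1451761_at, was called in no comparison. Hoxa4 probe set 1427354_at read 4.30, 4.39, 4.36, 4.30 and 4.25 in culture, 4.47 and 4.45 in newborn skin and 4.61, 4.50, 4.72, 4.52 and 4.51 in 30-day skin, a difference of -0.25 ± 0.07 against 30-day skin (adjusted p = 0.0111). That call was lost against the mixed-strain cultures alone, the strain of the 30-day skin, at -0.22 (adjusted p = 0.084), under median centring at -0.16 (adjusted p = 0.0768) and with close arrays averaged at -0.27 (adjusted p = 0.0874). Its second probe set, 1420226_x_at, read 3.96 to 4.29 in all 12 arrays and was not called. The count of 10 probe sets higher in culture than in newborn skin was 2 without replicate 1 of newborn skin, 4 without replicate 2 and 1 with close arrays averaged.

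Hoxa9 was the only Hox gene called between the strains in culture. Probe set 1455626_at read 4.96 and 5.10 in the mixed-strain cultures and 6.51, 6.91 and 5.96 in the FVB cultures, without overlap. The mixed-strain cultures were lower by -1.43 ± 0.26 (limma adjusted p = 0.00454), the 1 lower call among 37 probe sets (2.7%, against 5.3% of all), with 0 higher by limma (3.91% of all; 4 at an unadjusted p under 0.05 and 5 with array weights), and 9.22% of all probe sets called either way. Newborn skin, also of FVB mice, read 4.56 and 4.46, and 30-day skin read 4.80, 4.87, 4.96, 4.2 and 4.29. FVB cultures alone exceeded newborn skin by 1.95 (adjusted p = 5.21e-05), and mixed-strain cultures alone exceeded 30-day skin by 0.40 (adjusted p = 0.222), beside 1.37 ± 0.43 and 1.26 ± 0.33 with all cultures. The call of all cultures against newborn skin was lost without replicate 1 (adjusted p = 0.115) or replicate 2 (adjusted p = 0.143) of newborn skin. The second Hoxa9 probe set, 1421579_at, read 5.92, 6.11, 5.82, 5.77 and 6.16 in the cultures and was called in no comparison, so the gene's 2 probe sets disagree. The strain difference was -1.36 without culture 1 (adjusted p = 0.0717) and -1.31 with close arrays averaged (adjusted p = 0.296), no longer called. Both settings leave the mixed-strain cultures with 1 sample, which is assumed to vary like the other groups. The mixed-strain cultures also had more RNA of fibroblast markers (6.09 to 6.11, against 5.50 to 5.57 in the FVB cultures, 4 of 9 called) and of melanocyte markers (8.81 to 8.86 against 7.10 to 7.14, 4 of 5 called), whose part was not tested.

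The remaining 21 probe sets were called in none of the 5 comparisons. Their group means ran from 3.76 to 7.29, and the greatest size of any difference among them was 0.47. The probe sets behind the background line had a median group mean of 4.61 in culture, 4.59 in newborn and 4.67 in 30-day skin. Their highest group means were 7.03, 6.63 and 7.31, so a Hox probe set above the line can still lie within their range. Above the line lay 7 of the 37 Hox probe sets in culture, 8 in newborn and 11 in 30-day skin. Hoxa7, Hoxc9 and 2 probe sets of Hoxc6 passed it in all groups, whereas 25 probe sets passed it in none. Hoxc13 and Hoxd8 passed it in both skin groups, Hoxd9 only in newborn skin and Hoxc8 only in 30-day skin, while Hoxa5, Hoxb2 and Hoxb4 passed it in culture and at 30 days and Hoxb3 in both skin groups. The called probe sets of Hoxa4, Hoxa9, Hoxb6, Hoxb9, Hoxc4, Hoxc5 and Hoxc6 passed it in no group when all 5 cultures were averaged. Taken by strain, the FVB cultures averaged 6.46 for Hoxa9 probe set 1455626_at and 6.11 for Hoxb9, and the mixed-strain cultures 6.21 for Hoxc4. All lay above the line drawn from all cultures. The posterior genes Hoxa10, Hoxa11, Hoxa13, Hoxb13 and Hoxd10 to Hoxd13 stayed below it in all 3 groups and were called nowhere.

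**Figure D4:**
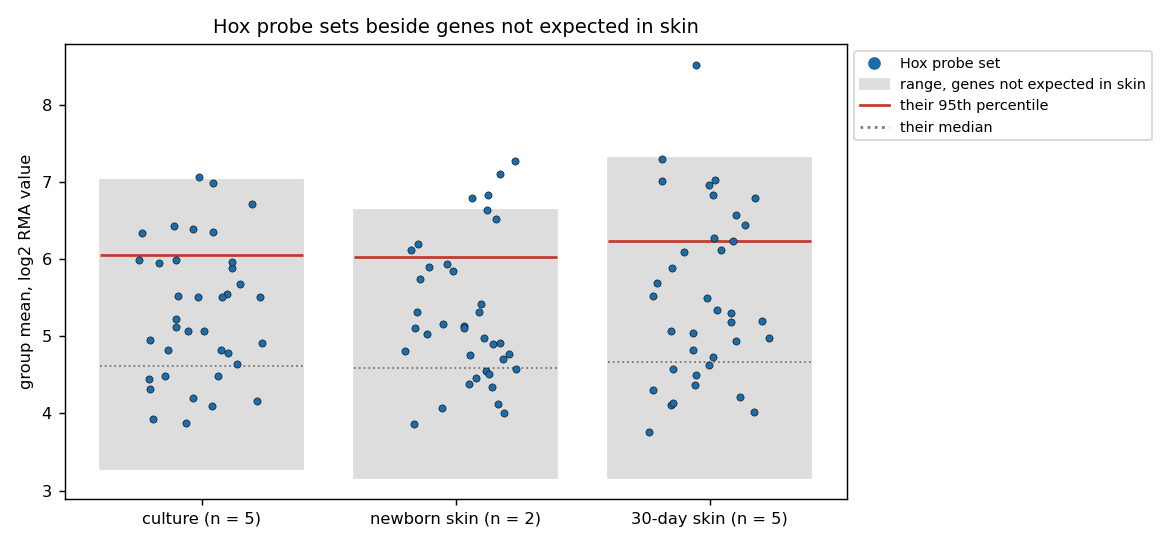
Group means of the 37 Hox probe sets beside those of 88 probe sets of genes not expected in skin, for culture, newborn and 30-day skin, with the 95th percentile of the latter drawn as a line. In culture 7 Hox probe sets lie above the line, in newborn skin 8 and in 30-day skin 11.

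The TALE class had 10 measured genes, those of the Pbx, Meis and Pknox cofactors and also Tgif1 and Tgif2. Of these, 1 was higher and 4 lower in culture than in newborn skin (17.6% and 14.7% of all probe sets). With 30-day skin as the reference, 2 were higher and 2 lower (25.1% and 18.2% of all). Tgif1, a TALE repressor that does not pair with Hox proteins in the manner of Pbx, was higher in culture by 2.18 ± 0.14 and 2.60 ± 0.11. Meis1 was lower in culture than in newborn skin by -1.03 ± 0.18 (limma adjusted p = 0.000427) and lower at 30 days than in newborn skin by -0.82 ± 0.18 (adjusted p = 0.00773). Meis2 changed sides with the skin it was set against, at -0.50 ± 0.15 against newborn and 0.67 ± 0.11 against 30-day skin, with -1.17 ± 0.15 between the ages (adjusted p = 0.000186). Pbx2 was lower in culture by -1.02 ± 0.22 and -0.51 ± 0.17. Pknox1 was lower than in 30-day skin by -0.89 ± 0.17 (adjusted p = 0.000599) and was not called against newborn skin, at -0.50 ± 0.22 (adjusted p = 0.104), and Tgif2 was lower than in newborn skin by -0.69 ± 0.14. Under epithelial centring 1 TALE gene was higher in culture against each skin group and 8 and 7 were lower. Between the ages 3 of the 10 TALE genes were called, Meis1, Meis2 and Tgif2, all lower at 30 days, and 7 were not called. Of all probe sets 7.36% were lower and 4.75% higher at 30 days. Of the 9 Hox calls 8 were higher.

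Of 28 measured genes known to set Hox expression, 2 were higher and 7 lower in culture than in newborn skin (17.6% and 14.7% of all probe sets), and against 30-day skin 6 were higher and 6 lower (25.1% and 18.2% of all). Egr2, a zinc finger factor that activates Hox genes in the hindbrain, had the largest difference, lower in culture by -1.40 ± 0.42 (limma adjusted p = 0.0206) and -2.45 ± 0.32 (adjusted p = 2.73e-05). Cbx2, a Polycomb subunit whose loss shifts Hox domains, was lower in culture by -0.80 ± 0.11 and -1.09 ± 0.08, and Jarid2, which recruits Polycomb complex 2, by -0.91 ± 0.21 and -1.27 ± 0.16. Eed, a core subunit of that complex, was higher by 0.52 ± 0.17 and 0.82 ± 0.12, and Yy1 by 0.69 ± 0.12 and 0.85 ± 0.09. Under epithelial centring 0 of the 28 were higher than in newborn skin and 26 lower, and 2 and 21 against 30-day skin. Kmt2a, which writes the activating methyl marks of Hox clusters, was lower than in 30-day skin by -0.58 ± 0.10 and not called against newborn skin, at -0.36 (limma adjusted p = 0.0579). Between the ages 2 of 28 were lower, Gmnn at -0.91 ± 0.26 and Phc2 at -0.53 ± 0.13, and 0 were higher (7.36% and 4.75% of all probe sets). Between the strains 6 were lower in mixed-strain cultures (5.3% of all probe sets), among them Egr2 at -1.59 ± 0.15, Gmnn at -0.90 ± 0.14 and Ezh2 at -0.83 ± 0.17. Genes flanking the clusters, 8 of them measured, had 2 higher and 0 lower in culture against either skin group. Of all probe sets 17.6% and 14.7% were so against newborn and 25.1% and 18.2% against 30-day skin. At 30 days 1 of the 8 was lower than in newborn skin (7.36% of all). Skap2, next to the 3' end of cluster A, was higher in culture by 1.79 ± 0.14 and 1.65 ± 0.10, whereas the nearest members Hoxa2 and Hoxa3 were not called.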

How the data were processed

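Submitters deposited log2 values made by RMA (background correction, quantile normalisation and a summary per probe set), per the submitters' processing notes, which give no version or settings. RMA keeps no detection call, and its quantile step assumes similar RNA distributions, which skin and culture may not share. Of 22690 probe sets, 64 controls were left out. The platform annotation gave 1 symbol for 20380, several for 691 and none for 1555 of the rest. All 37 members matched RefSeq by gene identifier, and 0 symbols differed.

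Groups came from sample titles. All 12 arrays entered a limma 3.58.1 fit (lmFit, eBayes, two-sided tests, R 4.3.3) with a mean for culture, newborn and 30-day skin; a fit with cultures split by strain gave the fifth comparison. P-values were adjusted by Benjamini-Hochberg over 22626 probe sets, threshold 0.05. Errors are SEs of differences and SDs of means. The number of arrays limits the precision. Values of every array are given for members called in a comparison. Listed genes are represented by their brightest probe set, and the rule for naming them took up to 4 called genes per list and comparison with the largest change, of which the text names a part, and genes needed to read a Hox result. Members and lists were chosen with earlier results of these data known. Alternatives covered normalisation, centring, dim probe sets, the probe set rule, thresholds, variance model, array weights, strain, the replicate number as a block, choices of samples and each array left out; averaging of close arrays was added after seeing the data. The fits were tested on simulated data. Probe sets of neighbouring or paralogous Hox genes may share transcripts or sequence, which was not tested. Proteins were not used here. Figures were drawn with matplotlib 3.10.9, numpy 2.4.6 and pandas 2.3.3 under Python 3.11.15.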

Additional observations from a re-analysis of the deposited data

Results flagged for a closer look

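Single arrays stood off from the rest of their group in 4 of 74 checks of groups of 5, and chance flags about 1 group in 20. Hoxa13 read 5.53 in culture 5, against 4.89 to 5.06 in the other cultures. In replicate 1 of 30-day skin, the array with the widest actin gap, Hoxa3 probe set 1427433_s_at read 5.26 against 4.65 to 4.82. There Hoxc4 read 5.73 against 5.22 to 5.27, and Hoxc6 probe set 1427361_at read 6.61 against 6.99 to 7.12.

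For 9 probe sets the difference of culture from skin depended on the skin group, by the contrast between the ages (limma adjusted p under 0.05). These are the 9 age calls given above, and strain moves with age in that contrast. Hoxa5 was higher in culture than in newborn skin by 1.07 and stood at -0.40 against 30-day skin, an age difference of 1.47. For Hoxb2 these values were 0.50, -0.67 and 1.18, and for Hoxb6 they were 0.52, -0.57 and 1.10, so both lay between the 2 skin groups. Hoxc8 had -0.13, -1.63 and 1.51, and Hoxb3 had -0.16, -0.62 and 0.45. Hoxc13 was lower than both, at -2.33 and -3.74, with an age difference of 1.41. Hoxd9 was the one with the opposite sign, at -1.29, -0.38 and -0.91. Hoxa7 had 0.55, 0.06 and 0.49, and Hoxc6 probe set 1427454_at had 0.39, 0.01 and 0.39. All 9 lost the call when close arrays were averaged, which leaves newborn skin with 1 sample and is no result about Hox genes in particular.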

How the results depend on the processing

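Of 47 calls, 16 held under every alternative that tested the probe set, among them Hoxc13 and Hoxd8 in all 3 comparisons of culture with skin. Alternatives that left a probe set out could not test its call. Against skin, Hoxa9 was tested under 21 and Hoxc8 under 22 settings, beside 23 for Hoxc13. Against 30-day skin, Hoxb9 and Hoxc8 were tested under 24, beside 25 for Hoxc13. Another 10 of the 47 calls changed sign under epithelial centring, and none of these was called the other way. Centring on 23 epithelial junction genes moved the median of all probe sets by -0.55 for culture against skin, -0.72 against newborn skin, -0.39 against 30-day skin and -0.33 between the ages, and called 6.43%, 3.53%, 10.2% and 1.98% of all probe sets higher and 73.6%, 76.8%, 59.6% and 36% lower. Median centring called 30.6%, 21.2%, 31.9% and 4.29% higher and 15.5%, 12.9%, 14.9% and 7.87% lower. Under epithelial centring the Hox counts went from 6 to 1 higher and 6 to 30 lower against skin, from 10 to 0 and 3 to 27 against newborn skin, from 4 to 2 and 8 to 30 against 30-day skin, and from 8 to 5 and 1 to 6 between the ages. The turned values against skin were -0.25 for Hoxa7, -0.19 for Hoxb4 and -0.12 for Hoxc5, and against newborn skin -0.17 for Hoxa7, -0.21 for Hoxb2, -0.19 for Hoxb4, -0.19 for Hoxb6, -0.040 for Hoxc4, -0.31 for Hoxc5 and -0.32 for Hoxc6.

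Leaving out the dimmest 40% of probe sets removed dim members from the test and left 3 higher against skin, 6 against newborn skin and 1 against 30-day skin, and 0 lower between the strains. At 0.01, 4 were higher against newborn skin and 5 between the ages. Close arrays averaged, which leaves fewer samples, gave 3 higher against skin, 1 against newborn skin, 0 higher and 0 lower between the ages and 0 lower between the strains. Between the strains, array weights gave 5 higher and 2 lower, the cultures alone 1 higher, and 1 probe set per gene 0 lower, since the brighter Hoxa9 probe set is the one not called. Leaving out 1 array at a time gave 5 to 7 higher and 5 to 6 lower against skin, 2 to 10 and 3 against newborn skin, 4 to 5 and 8 to 10 against 30-day skin, 4 to 8 and 1 between the ages, and 0 to 2 and 0 to 1 between the strains; a lone newborn array was assumed to vary like the other groups. Deviations of same-numbered samples from their group means correlated at r -0.279 to 0.196 over 9 pairs, 1 above 0.1. Those of the 2 newborn arrays mirror each other and those of the cultures hold the strain split. These values therefore cannot decide whether the numbers pair samples. With the replicate block 6 were higher against newborn skin and 5 between the ages. Unless stated, the cause was not tested.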

Other observations

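Homeobox genes outside the Hox clusters were also set against culture. Of 34 measured, 18 were lower and 3 higher in culture than in newborn skin (14.7% and 17.6% of all probe sets). Against 30-day skin 17 were lower and 4 higher (18.2% and 25.1% of all). Msx2 and Dlx3 are also on the hair list and Prrx1 on the fibroblast list. Under epithelial centring 0 were called higher than in newborn skin and 30 lower. Lhx2, a factor of hair follicle stem cells, was lower by -3.45 ± 0.14 and -3.36 ± 0.11, and Prrx1, a mesenchymal factor, by -3.25 ± 0.21 and -1.56 ± 0.16. Irx5 was higher by 1.56 ± 0.44 and 1.5 ± 0.33 and, like Hoxa9, lower in mixed-strain than in FVB cultures, by -1.46 ± 0.27 (limma adjusted p = 0.00539). Between the strains 2 of the 34 were lower and 2 higher (5.3% and 3.91% of all probe sets). Between the ages 5 were lower and 2 higher at 30 days (7.36% and 4.75% of all probe sets). Satb1, among the lower at -1.90 ± 0.27, also changed sides in culture, at -0.81 ± 0.27 against newborn and 1.09 ± 0.20 against 30-day skin.

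Body site genes outside the clusters had 15 measured members, with 5 lower and 1 higher in culture than in newborn skin (14.7% and 17.6% of all probe sets). Against 30-day skin 3 were lower and 0 higher (18.2% and 25.1% of all). Zic1 was lower by -2.43 ± 0.13 and -1.43 ± 0.10, Tbx15, a factor of dorsal dermis, by -2.12 ± 0.16 and -1.21 ± 0.12, and Tbx1 by -2.16 ± 0.15 and -2.56 ± 0.12. The 3 called between the ages, Zic1 at -1.0 ± 0.13, Tbx15 at -0.92 ± 0.16 and Dkk1 at -0.72 ± 0.12, were lower at 30 days, beside 7.36% of all probe sets. Fibroblast markers were lower in culture in the same arrays, and their part was not tested.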
